A study of Mus musculus with 15 samples.

Results

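The genes described here are 36 genes of mitosis, the part of the cell cycle in which a cell divides its copied chromosomes between its daughters. They were taken by gene symbol from a fixed list, and all 36 were found among the 23509 genes of each of the 2 deposited tables. They were followed in livers of male mice of 8 to 10 weeks, Aldh2-/- or C57BL/6 wild type (WT), that received an ethanol diet or a pair-fed control diet. Aldh2 is the mitochondrial enzyme that oxidises acetaldehyde from ethanol, and the labels name no tissue-specific driver for its loss. By the sample annotation every group, controls included, was also injected intraperitoneally with carbon tetrachloride (CCl4), a liver toxin that causes fibrosis, dissolved in olive oil. Injections were given 2 times per week for 8 weeks, and the livers were taken 24 h after the last one. The sample titles name CCl4 for the ethanol groups only. Libraries numbered 4 for ethanol-fed Aldh2-/-, 5 for ethanol-fed WT, 3 for pair-fed Aldh2-/- and 3 for pair-fed WT livers, and each is called here by the number in its title. The labels do not say which mouse each number stands for, so the p-values below measure the spread between these libraries.

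Mitosis is started by the kinase Cdk1 with cyclin A or B, which the phosphatase Cdc25 and the kinase Plk1 help to switch on. Microtubule motors and kinases then build the spindle, the checkpoint kinases and Mad2 hold the cell until each chromosome is attached, and the anaphase-promoting complex with Cdc20 and Ube2c destroys securin and cyclin B so that sister chromatids part and cytokinesis can follow. Most genes of this machinery are transcribed late in the cell cycle, under Foxm1, B-Myb and the MuvB complex, and are silent in resting cells. The adult liver is mostly quiescent, and its cells enter the cycle after loss of tissue or toxic injury.

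Promoters are shown first, because the members are known as a set that is transcribed together and RefSeq holds their start sites. A pair of short motifs were looked for on both strands of windows from 250 bases before to 50 bases after each start (RefSeq, GRCm38.p6): TTTGAA, the core of the cell cycle genes homology region that MuvB complexes bind, and CCAAT, the box bound by NF-Y. Of the 36 members, 30 had a window, all but Ccna2, Aurkb, Cdc25c, Kif20a, Tpx2 and Foxm1. TTTGAA was present in 23 of them (76.7%), beside 17.9% of the 32817 windows of all genes. CCAAT was present in 24 (80.0%), beside 37.4% of all windows, and 16 members held it 2 or more times, as did 11.7% of all windows. Both motifs stood in 1 window for 21 members, and for 6.94% of all windows. Birc5, Mad2l1, Nusap1 and Pttg1 held neither. The windows of Ccnb1 (chr13:100786437-100786736, minus strand), Ccnb2 (chr9:70421505-70421804, minus strand), Cdk1 (chr10:69352863-69353162, minus strand) and Plk1 (chr7:122159185-122159484, plus strand) are printed 5′ to 3′ because these 4 genes encode the core of the entry machinery. Capitals mark the matches. CCAAT on the other strand reads ATTGG.
Ccnb1: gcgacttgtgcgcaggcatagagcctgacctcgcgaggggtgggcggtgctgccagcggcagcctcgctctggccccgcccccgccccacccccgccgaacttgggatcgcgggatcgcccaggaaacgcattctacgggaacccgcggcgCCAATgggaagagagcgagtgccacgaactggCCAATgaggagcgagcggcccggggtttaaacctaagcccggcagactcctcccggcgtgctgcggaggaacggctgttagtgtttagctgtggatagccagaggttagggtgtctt
Ccnb2: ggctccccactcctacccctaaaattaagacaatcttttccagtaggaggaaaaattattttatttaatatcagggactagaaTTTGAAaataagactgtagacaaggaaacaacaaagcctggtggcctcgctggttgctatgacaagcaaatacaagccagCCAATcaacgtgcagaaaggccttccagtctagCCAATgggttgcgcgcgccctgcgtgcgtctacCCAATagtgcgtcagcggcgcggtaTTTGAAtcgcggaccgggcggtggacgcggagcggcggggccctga
Cdk1: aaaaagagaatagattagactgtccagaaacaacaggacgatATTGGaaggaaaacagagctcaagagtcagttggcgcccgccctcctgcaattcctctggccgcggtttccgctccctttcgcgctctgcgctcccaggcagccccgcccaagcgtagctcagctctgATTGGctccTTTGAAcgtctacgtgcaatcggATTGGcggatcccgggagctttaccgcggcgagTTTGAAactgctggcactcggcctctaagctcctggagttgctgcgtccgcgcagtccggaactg
Plk1: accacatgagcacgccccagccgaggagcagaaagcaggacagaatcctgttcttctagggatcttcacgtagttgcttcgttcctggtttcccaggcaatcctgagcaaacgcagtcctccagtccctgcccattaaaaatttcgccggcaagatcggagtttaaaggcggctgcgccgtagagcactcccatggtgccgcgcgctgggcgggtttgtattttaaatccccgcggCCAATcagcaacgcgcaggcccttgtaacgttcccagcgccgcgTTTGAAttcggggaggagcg

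In the Ccnb1 window, CCAAT began 99 and 67 bases before the start, and TTTGAA was not found. The Ccnb2 window held CCAAT at 87, 54 and 21 bases before the start, with TTTGAA at 167 bases before it and again from base 5 after it. In the Cdk1 window, ATTGG began at 208, 80 and 48 bases and TTTGAA at 71 and 15 bases before the start. Plk1 had 1 CCAAT at 14 bases before and 1 TTTGAA from base 31 after the start. None of these motifs overlapped another in the 4 windows. A match is a match of letters, and binding was not measured.

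Values are FPKM, fragments per kilobase of gene scaled to each library's total, and were comparable between genes as levels per length. Low values lay at whole multiples of 1 fragment in 99.3% of 46816 cases, which put the libraries at 31.6 to 39.0 M (mega) fragments and gave the fragments behind each member. They numbered 2 to 1167 per member and library in ethanol-fed WT livers (median 31, under 10 in 29 of 180 values) and 83 to 7261 in pair-fed Aldh2-/- livers. The liver label held: 12 hepatocyte markers summed to 67983 FPKM or more in every library, and Alb alone to at least 33369.5. Aldh2 stood at 8.82 to 11.5 FPKM in ethanol-fed and 6.57 to 6.90 in pair-fed Aldh2-/- livers, against 544 to 688 and 277 to 309 in WT. The share of transcripts from the mitochondrial genome, by FPKM, was 15.2% to 24.2% for pair-fed WT livers and 6.90% to 10.8% in pair-fed Aldh2-/- livers. Under ethanol it ran from 6.68% to 9.72%, apart from Aldh2-/- 90 (18.2%) and WT 5 (13.6%). A single pair-fed Aldh2-/- library, number 9, stood apart from the other 2 in the members themselves. The total counts of called members and the median ratios of that group are therefore also given without library 9. Other values of that group include it unless stated otherwise.

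The members were lowest in ethanol-fed WT livers and highest in pair-fed Aldh2-/- livers. Summed over the 36 genes, FPKM was 21.0 to 30.6 in ethanol-fed WT, 64.9 to 150.3 in ethanol-fed Aldh2-/-, 108 to 188 in pair-fed WT and 277 to 969 in pair-fed Aldh2-/- libraries. The ethanol-fed Aldh2-/- and pair-fed WT sums overlapped, and no other neighbours in that order did. The median member averaged 0.225, 1.42, 1.84 and 9.64 FPKM in the same order. Ube2c, which hands ubiquitin to the anaphase-promoting complex, had the highest mean of all members in 3 groups, at 18.8 ± 13.2 in ethanol-fed Aldh2-/- (mean ± SD, n = 4), 33.0 ± 10.6 in pair-fed WT (n = 3) and 159.8 ± 115 FPKM in pair-fed Aldh2-/- livers (n = 3). In ethanol-fed WT livers the securin gene Pttg1 led, at 7.07 ± 1.92 FPKM (n = 5), ahead of Ube2c at 2.30 ± 0.238. The lowest means were those of Bub1, a checkpoint kinase, in both Aldh2-/- groups (0.135 ± 0.0467 and 1.72 ± 1.08 FPKM, ethanol and pair-fed) and of Cenpf, a kinetochore protein, in both WT groups (0.0195 ± 0.0145 and 0.294 ± 0.0829 FPKM). Each diet was deposited as its own table, with FPKM scaled library by library, so diet and whatever else differed between the tables cannot be told apart. In bulk liver, fewer dividing cells and less of these transcripts per dividing cell cannot be told apart.

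Library by library, the order held for most members. Every ethanol-fed Aldh2-/- library was above every ethanol-fed WT library in 35 of 36 members, and among all genes averaging 0.5 FPKM or more this was so for 15%. Of the 25 members that reach that mean, 24 were among the 35. For pair-fed WT above ethanol-fed WT the count was 35, with 22 of the 23 that reach the mean (all genes 10.4%). Pttg1 was the 1 exception in both. Only 10 members averaged 0.5 FPKM or more in ethanol-fed WT livers. The others counted there reach the mean only through the group where they were higher, so reaching it and lying above were not independent. Every pair-fed Aldh2-/- library was above every pair-fed WT library in 30 members (all genes 44.1%) and above every ethanol-fed Aldh2-/- library in 30 (all genes 29.6%). Here too some members, such as Bub1, Cenpe and Cenpf, reach the mean only through pair-fed Aldh2-/- livers. Between ethanol-fed Aldh2-/- and pair-fed WT livers, which differ in both genotype and diet, 33 members had the higher mean in pair-fed WT, but the libraries did not overlap in only 8 (all genes 12.8%). Bub1b, Nusap1 and Ckap2 had the higher mean in ethanol-fed Aldh2-/- livers, for example Nusap1 at 1.49 ± 0.380 against 1.05 ± 0.329 FPKM. The libraries of these groups overlapped for all 3.

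**Figure D1:**
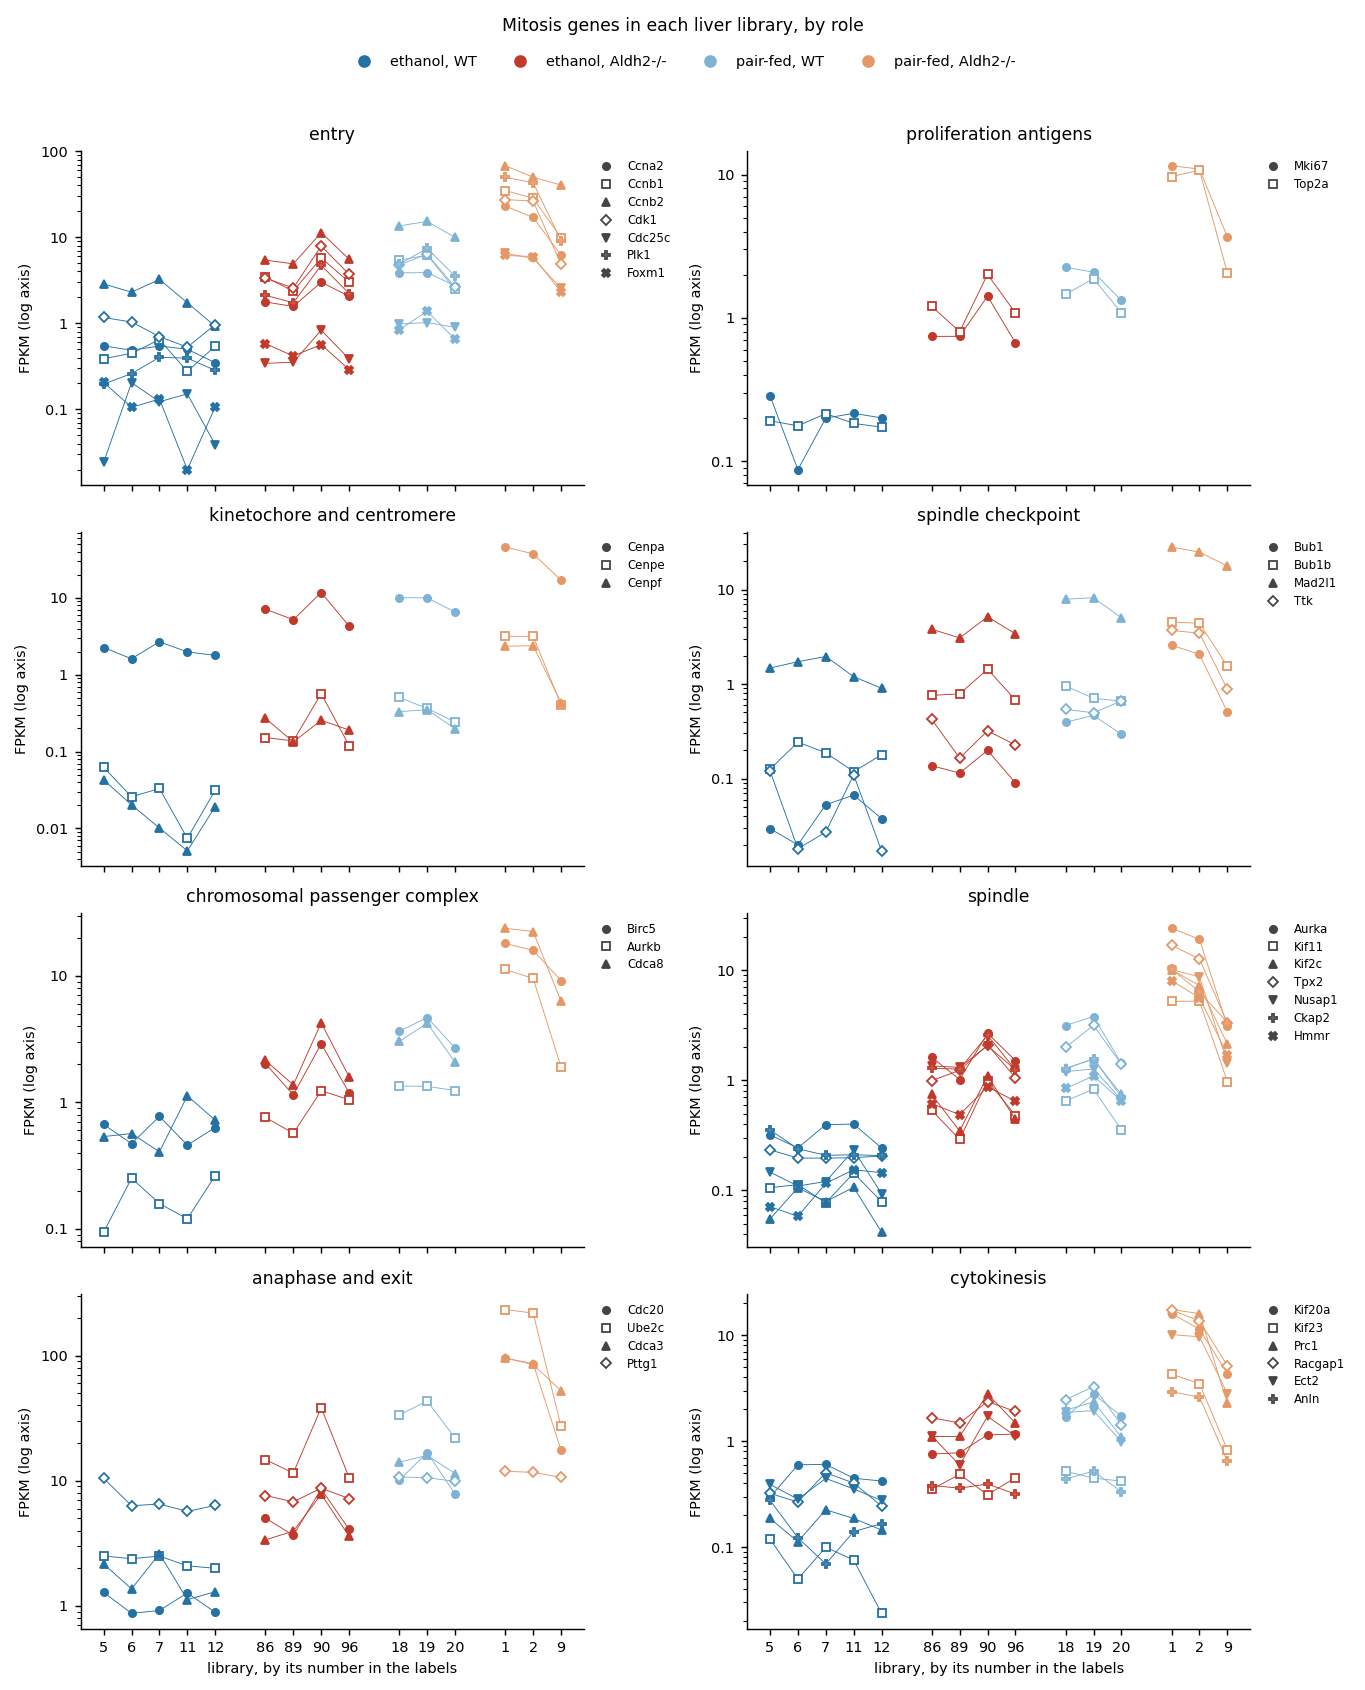
FPKM of each mitosis gene (log axis) in each of the 15 libraries, in 1 panel per role, with the groups in colour and the genes by symbol; thin lines join the values of 1 gene within a group and imply no order. Ethanol-fed WT libraries lie lowest and pair-fed Aldh2-/- libraries 1 and 2 highest, while Pttg1 stays between 5.70 and 11.9 FPKM in all 15.

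The first comparison set Aldh2-/- against WT livers under ethanol, and most members were several-fold higher in Aldh2-/-. Of the 36, 25 passed the filter of a mean of 0.5 FPKM over these 9 libraries, and 24 of those were higher in Aldh2-/- livers and 0 lower (limma, log2(FPKM + 1), p under 0.05 after Benjamini-Hochberg adjustment over 11013 genes). Of all genes tested, 21.5% were called higher. Of the 25, 15 averaged under 0.5 FPKM in WT and passed only through the Aldh2-/- libraries, so they had to differ. Of the 10 that averaged 0.5 FPKM or more in WT, 9 were called higher. The counts by role below hold both kinds. The median log2 change of the tested members was 1.03, beside 0.04 over all genes. On that scale a pseudocount of 1 shrinks the change of genes below 1 FPKM, where most members stood in WT livers. As ratios of mean FPKM, all 36 members ran from 1.07-fold (Pttg1) to 10.9-fold (Cenpf), with a median of 5.10-fold. The median was 4.22-fold without Aldh2-/- 90 and 4.26-fold without it and WT 5.

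Genes of mitotic entry rose in 5 of 5 tested members. Ccnb1, Ccna2 and Plk1 averaged under 0.5 FPKM in WT and passed the filter only through the Aldh2-/- libraries, so they had to differ. Ccnb1, cyclin B1, which activates Cdk1 at the onset of mitosis (chromosome 13, 100778650-100786570, minus strand, GRCm38, protein-coding like all members), stood at 3.44, 2.37, 5.75 and 3.02 FPKM in ethanol-fed Aldh2-/- livers 86, 89, 90 and 96 and 0.388, 0.448, 0.646, 0.276 and 0.543 in WT livers 5, 6, 7, 11 and 12. The lowest Aldh2-/- library was above the highest WT library (2.37 against 0.646 FPKM), and the group means were 7.92-fold apart (log2 change 1.63 ± 0.17, SE, adjusted p = 0.000214, limma). Ccnb2, the second B-type cyclin (chromosome 9, 70407692-70421547, minus strand), was at 5.42, 4.91, 11.3 and 5.55 FPKM in the Aldh2-/- libraries, against 2.87, 2.30, 3.23, 1.73 and 0.923 in WT, libraries in the same order. The groups did not overlap but lay closer together, 3.08-fold (log2 change 1.27 ± 0.26, SE, adjusted p = 0.00421). For Cdk1 itself (chromosome 10, 69335146-69352938, minus strand) the values were 3.35, 2.58, 7.91 and 3.71 FPKM in the Aldh2-/- libraries, against 1.17, 1.03, 0.701, 0.528 and 0.969 in WT. Again no WT library reached the lowest Aldh2-/- one, with means 4.98-fold apart (log2 change 1.44 ± 0.23, SE, adjusted p = 0.00113). Plk1, the polo-like kinase of mitotic entry, rose 8.76-fold and Ccna2, cyclin A2, 4.33-fold. Aldh2-/- 90, the library with the high mitochondrial share, was the highest of its group for all 5.

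The proliferation antigens Mki67 and Top2a both rose. Both averaged under 0.5 FPKM in WT and passed the filter only through the Aldh2-/- libraries, so they had to differ. Mki67 encodes Ki-67, which coats mitotic chromosomes and is the usual stain for cycling cells (chromosome 7, 135689784-135716361, minus strand). It measured 0.742, 0.743, 1.42 and 0.670 FPKM in the Aldh2-/- libraries, against 0.285, 0.0871, 0.199, 0.215 and 0.200 in WT. All Aldh2-/- values lay above all WT values, and 3 of the 4 fell within 0.670 to 0.743 FPKM (4.52-fold, log2 change 0.65 ± 0.11, SE, adjusted p = 0.00177). Top2a, the topoisomerase that untangles sister chromatids, was at 1.20, 0.801, 2.01 and 1.08 FPKM in the Aldh2-/- libraries, against 0.191, 0.176, 0.214, 0.183 and 0.172 in WT. WT libraries were within 0.172 to 0.214 FPKM, and the means differed 6.80-fold (log2 change 0.91 ± 0.13, SE, adjusted p = 0.000614).

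Among kinetochore and checkpoint genes, Cenpa, Mad2l1 and Bub1b passed the filter and all 3 rose. Bub1b averaged under 0.5 FPKM in WT and passed only through the Aldh2-/- libraries, so it had to differ. Cenpa, the histone variant that marks centromeres, stood at 7.16, 5.20, 11.8 and 4.31 FPKM in the Aldh2-/- libraries, against 2.26, 1.61, 2.69, 1.98 and 1.79 in WT. The ratio of means was 3.44 (log2 change 1.33 ± 0.22, SE, adjusted p = 0.00146). Mad2l1, which encodes the checkpoint protein Mad2, was at 3.80, 3.08, 5.15 and 3.41 FPKM in the Aldh2-/- libraries, against 1.48, 1.73, 1.96, 1.20 and 0.904 in WT. Its groups were the nearest of these genes, 2.66-fold apart, with no overlap (log2 change 0.99 ± 0.15, SE, adjusted p = 0.00100). Bub1b, which encodes the checkpoint kinase-like protein BubR1, was 5.37-fold higher (adjusted p = 0.00106). All 3 genes of the chromosomal passenger complex, which corrects faulty attachments, rose as well. Its kinase Aurkb was at 0.761, 0.570, 1.23 and 1.05 FPKM in the Aldh2-/- libraries, against 0.0943, 0.252, 0.159, 0.120 and 0.264 in WT. No WT library came above 0.264 FPKM (5.09-fold, log2 change 0.68 ± 0.11, SE, adjusted p = 0.00110). Aurkb therefore passed the filter only through the Aldh2-/- libraries and had to differ. Birc5, survivin, was 3.02-fold and Cdca8, borealin, 3.49-fold higher.

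Spindle genes rose in 4 of 4 tested members. All 4 averaged under 0.5 FPKM in WT and passed the filter only through the Aldh2-/- libraries, so they had to differ. Nusap1, a protein that bundles spindle microtubules near chromatin, had the smallest p of all members. It measured 1.35, 1.31, 2.06 and 1.25 FPKM in the Aldh2-/- libraries, against 0.147, 0.110, 0.121, 0.233 and 0.0938 in WT. Every Aldh2-/- library was at least 1.25 FPKM and no WT library above 0.233, a ratio of means of 10.6 (log2 change 1.12 ± 0.10, SE, adjusted p = 8.58e-05). Ckap2, another microtubule-binding protein, stood at 1.29, 1.27, 2.57 and 1.25 FPKM in the Aldh2-/- libraries, against 0.355, 0.239, 0.209, 0.211 and 0.208 in WT. Here Aldh2-/- 90 was 2.57 and the other 3 within 1.25 to 1.29 FPKM (6.53-fold, log2 change 1.03 ± 0.14, SE, adjusted p = 0.000480). Tpx2, which activates Aurora A on the spindle, was 6.53-fold and Aurka, Aurora A itself, 5.33-fold higher.

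Of the genes of anaphase and mitotic exit, Cdc20, Ube2c and Cdca3 rose and Pttg1 was not called. Cdc20, which directs the anaphase-promoting complex to its substrates, measured 5.03, 3.67, 8.61 and 4.09 FPKM in the Aldh2-/- libraries, against 1.28, 0.872, 0.919, 1.27 and 0.889 in WT. The groups were 5.11-fold apart without overlap (log2 change 1.58 ± 0.19, SE, adjusted p = 0.000321). Ube2c was at 14.8, 11.5, 38.4 and 10.6 FPKM in the Aldh2-/- libraries, against 2.51, 2.38, 2.50, 2.09 and 2.00 in WT. Its mean was 8.20-fold higher with Aldh2-/- 90 and 5.36-fold without it, and its log2 change of 2.40 ± 0.30 (SE, adjusted p = 0.000403) was the largest of the tested members. Cdca3, a trigger of mitotic entry that the same complex destroys, was at 3.37, 3.96, 7.80 and 3.61 FPKM in the Aldh2-/- libraries, against 2.16, 1.37, 2.61, 1.12 and 1.30 in WT. The lowest Aldh2-/- library stood above the highest WT one, WT 7 (log2 change 1.04 ± 0.22, SE, adjusted p = 0.00522). Pttg1, whose product securin is destroyed so that sister chromatids can part, stood at 7.63, 6.79, 8.73 and 7.21 FPKM in the Aldh2-/- libraries, against 10.4, 6.32, 6.51, 5.70 and 6.35 in WT. Its highest value was in a WT library and its groups overlapped (adjusted p = 0.585). The length behind the FPKM of Pttg1, worked out from its fragments, was 1.43 times the summed length of its annotated exons (GENCODE vM21), where the other members had ratios of 0.249 to 1.02. Whether the row also counts other transcripts was not tested.

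Cytokinesis genes rose in 4 of 4 tested members. All 4 averaged under 0.5 FPKM in WT and passed the filter only through the Aldh2-/- libraries, so they had to differ. Racgap1, a subunit of the centralspindlin complex that positions the cleavage furrow, measured 1.66, 1.48, 2.36 and 1.91 FPKM in the Aldh2-/- libraries, against 0.322, 0.266, 0.503, 0.403 and 0.244 in WT. The means were 5.34-fold apart, and no library of one group came near the other (log2 change 1.08 ± 0.10, SE, adjusted p = 0.000119). Prc1, which cross-links the midzone microtubules, was 9.48-fold, Ect2, the exchange factor that activates RhoA at the furrow, 3.25-fold and the kinesin Kif20a 2.03-fold higher, the last with the smallest ratio after Pttg1. The 11 members below the filter were Cdc25c, Bub1, Ttk, Cenpe, Cenpf, Kif11, Kif23, Kif2c, Foxm1, Hmmr and Anln. Their means were 0.135 to 0.658 FPKM in Aldh2-/- and 0.0195 to 0.155 in WT livers, and they have no test here. In all 11, each Aldh2-/- library was above each WT library, but the 15% over all genes covers only means of 0.5 FPKM or more. No such share was worked out for genes this low. Cenpf, for example, stood at 0.271, 0.134, 0.256 and 0.191 FPKM in the Aldh2-/- libraries, against 0.0429, 0.0203, 0.0101, 0.00511 and 0.0193 in WT. The 5 WT values of Cenpf rest on 2 to 19 fragments each. Cenpe, the motor that carries chromosomes to the spindle equator, was 7.63-fold higher, and 4.26-fold without Aldh2-/- 90.

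**Figure D2:**
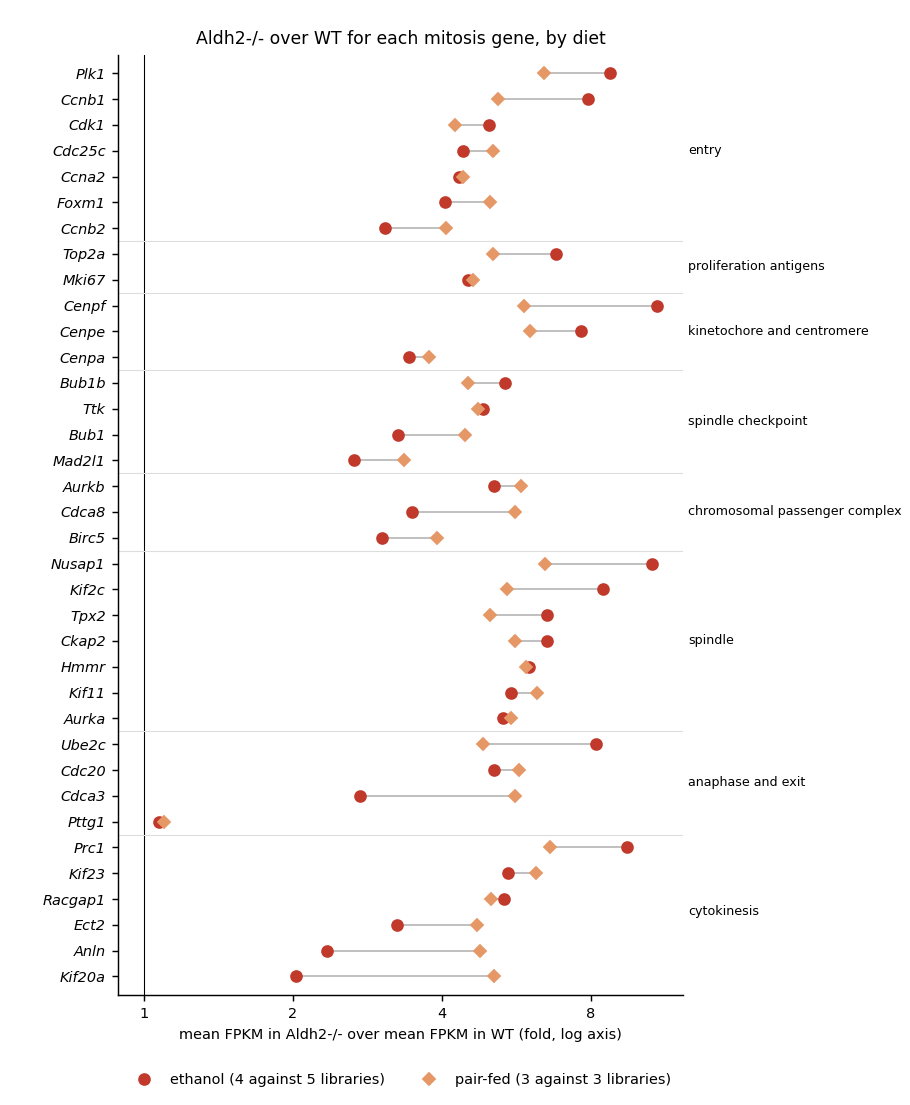
Ratio of mean FPKM in Aldh2-/- over WT livers (log axis) for each mitosis gene, grouped by role, under ethanol (circles, 4 against 5 libraries) and pair-feeding (diamonds, 3 against 3); the vertical line marks 1. All but Pttg1 lie at 2.03 or above, and the median is 5.10 under ethanol and 5.08 under pair-feeding.

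The second comparison set the genotypes against each other in pair-fed livers, where the members were again higher in Aldh2-/-, far more so in libraries 1 and 2 than in library 9. All 36 members passed the filter over these 6 libraries, and 31 were higher in Aldh2-/- livers and 0 lower (limma, adjusted over 11138 genes), beside 26.0% of all genes called higher. Bub1, Cenpe, Cenpf, Kif23 and Anln averaged under 0.5 FPKM in WT and passed only through the Aldh2-/- libraries, so they had to differ. All of these but Cenpe were called. The ratios of mean FPKM had a median of 5.08 and ran from 1.10 (Pttg1) to 6.63 (Prc1). All genes together were shifted here by a median log2 change of 0.26, which median-ratio rescaling set to 0.01. The median over the members was 1.64, or 1.38 above that of all genes. The calls depended on the scaling and on single libraries: 6 members were called higher after median-ratio rescaling, 5 without WT 20, 6 without Aldh2-/- 1, 14 without Aldh2-/- 2 and 16 without WT 18, whereas 35 were called without Aldh2-/- 9. Ccnb2, Cdc25c, Birc5, Mad2l1 and Cdca3 were called in all 19 fits of this comparison, alternatives and leave-outs included. No member was called lower in any of them.

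Library 9 separated the members. It was the lowest of the 3 pair-fed Aldh2-/- libraries for 36 of 36 members, and for 33.9% of all genes. The mean of libraries 1 and 2 was 4.02-fold that of library 9 for the median member and 0.980-fold for the median gene. Libraries 1 and 2 were above every WT library for all 36 members. Library 9 was above every WT library for 30 and within the WT range for 6, namely Cdk1, Ube2c, Aurka, Cenpe, Prc1 and Pttg1. All 3 were above every WT library for 44.1% of all genes averaging 0.5 FPKM or more. The share for libraries 1 and 2, or for library 9, alone is at least that and was not worked out. Over the mean of WT, library 9 stood between 0.824-fold (Ube2c) and 3.79-fold (Cdca3), median 1.76. Without library 9, the median ratio of Aldh2-/- over WT was 6.68 and the members ran from 1.13 to 9.31. The ratios of single genes below include library 9. Its depth was 37.8 M fragments and its mitochondrial share 6.90%, against 33.4 and 34.0 M and 9.22% and 10.8% in libraries 1 and 2. Its macrophage markers summed to 721 FPKM, above 569.7 and 565, and its erythroid markers to 319.9, below 741 and 772. The part of any of these in the difference was not tested.

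**Figure D3:**
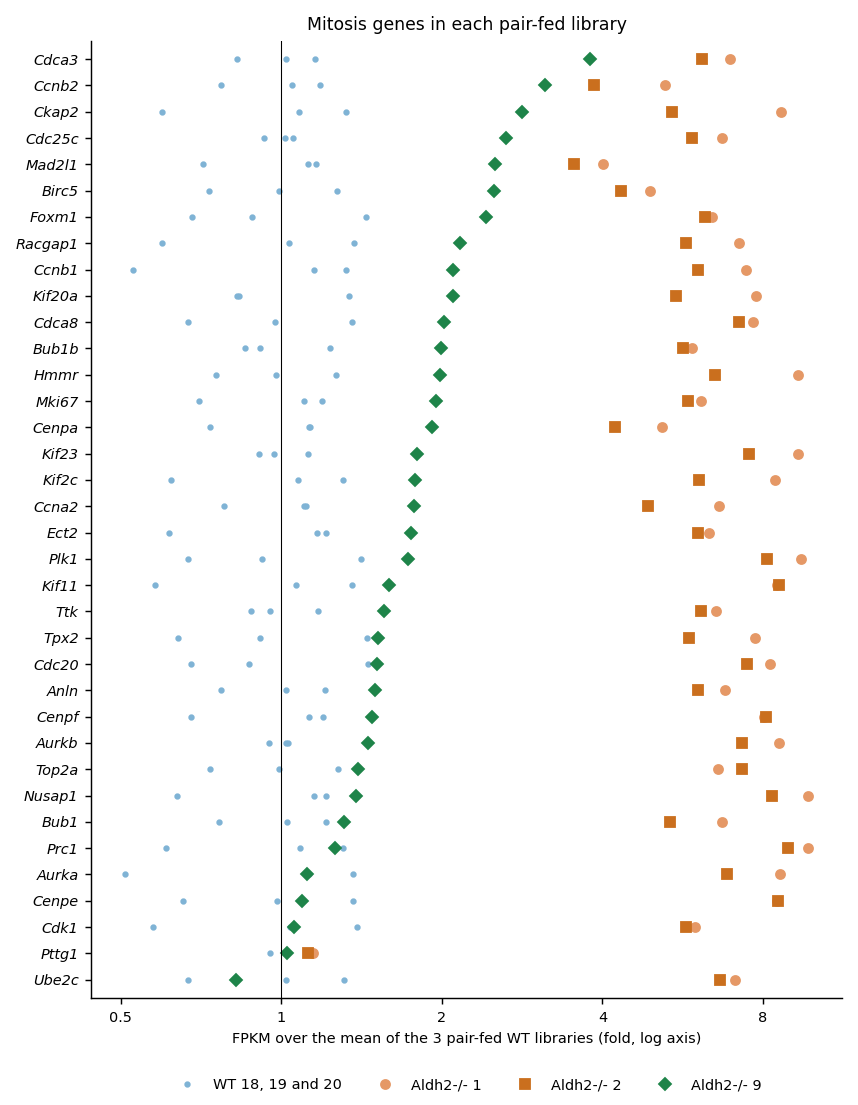
FPKM of each mitosis gene in each pair-fed library over the mean of the 3 pair-fed WT libraries (fold, log axis), genes sorted by the value in Aldh2-/- library 9. Libraries 1 and 2 lie right of every WT library for all 36 genes, while library 9 runs from 0.824-fold to 3.79-fold. Over all genes averaging 0.5 FPKM or more, the share for libraries 1 and 2 is at least 44.1%.

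Entry genes in pair-fed livers rose in 6 of 7 members. Ccnb2 measured 67.7, 49.9 and 40.4 FPKM in Aldh2-/- libraries 1, 2 and 9, against 13.5, 15.3 and 9.94 in WT 18, 19 and 20. All 3 Aldh2-/- libraries were above every WT library, and the means were 4.08-fold apart (log2 change 1.93 ± 0.22, SE, adjusted p = 0.00412). Ccnb1 was at 34.9, 28.4 and 9.87 FPKM in the Aldh2-/- libraries and 5.41, 6.21 and 2.47 in WT. Library 9 lay much nearer to WT 19 than to Aldh2-/- 1 (log2 change 2.05 ± 0.44, SE, adjusted p = 0.0170). Cdk1 was the entry gene that was not called, at 27.4, 26.3 and 4.84 FPKM in the Aldh2-/- libraries and 4.77, 6.36 and 2.63 in WT. Its library 9 sat between WT 18 and WT 19 (ratio of means 4.25, adjusted p = 0.0620). Cdc25c, the phosphatase that activates Cdk1, was 5.08-fold, the transcription factor gene Foxm1 5.02-fold and Plk1 6.44-fold higher. Mki67 stood at 11.5, 10.9 and 3.67 FPKM in the Aldh2-/- libraries and 2.25, 2.08 and 1.32 in WT, 4.62-fold apart without overlap (log2 change 1.64 ± 0.35, SE, adjusted p = 0.0169). Top2a was 5.09-fold higher (adjusted p = 0.0367).

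Kinetochore genes split by library 9. Cenpa measured 45.9, 37.4 and 17.0 FPKM in the Aldh2-/- libraries and 10.1, 10.0 and 6.55 in WT. All Aldh2-/- values were above WT (3.77-fold, log2 change 1.71 ± 0.33, SE, adjusted p = 0.0141). Cenpe was at 3.16, 3.16 and 0.406 FPKM in the Aldh2-/- libraries and 0.506, 0.365 and 0.243 in WT. Libraries 1 and 2 were alike and library 9 fell inside the WT range, and the gene was not called (adjusted p = 0.0609). All 4 checkpoint genes rose, with Bub1 among those that passed the filter only through the Aldh2-/- libraries. Mad2l1 was at 28.2, 24.9 and 17.7 FPKM in the Aldh2-/- libraries and 7.91, 8.19 and 5.03 in WT. Its library 9 was 2.52-fold the WT mean, where the median member stood at 1.76 (log2 change 1.61 ± 0.22, SE, adjusted p = 0.00604). Bub1b rose 4.51-fold, Ttk, the kinase Mps1, 4.73-fold and Bub1 4.46-fold, with adjusted p = 0.0177, 0.0332 and 0.0496. Passenger complex genes rose in 3 of 3 members. Birc5 measured 18.0, 15.9 and 9.19 FPKM in the Aldh2-/- libraries and 3.65, 4.68 and 2.69 in WT, with no overlap and means 3.91-fold apart (log2 change 1.69 ± 0.25, SE, adjusted p = 0.00805). Aurkb and Cdca8 were 5.78-fold and 5.62-fold higher.

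Spindle genes rose in 6 of 7 members. Ckap2 was at 10.2, 6.38 and 3.35 FPKM in the Aldh2-/- libraries and 1.28, 1.56 and 0.708 in WT. Library 9 was above the highest WT library (5.62-fold, log2 change 1.72 ± 0.32, SE, adjusted p = 0.0128). Aurka, not called, was at 24.1, 19.1 and 3.11 FPKM in the Aldh2-/- libraries and 3.15, 3.80 and 1.43 in WT, with library 9 below WT 18 and WT 19 (adjusted p = 0.0567). Nusap1 was 6.47-fold, the spindle motor gene Kif11 6.23-fold and Kif2c, a kinesin that shortens microtubules at centromeres, 5.43-fold higher. Exit genes rose in 2 of 4 members. Cdca3 measured 95.7, 85.0 and 52.3 FPKM in the Aldh2-/- libraries and 14.1, 16.0 and 11.4 in WT. It had the largest log2 change of all members and the highest ratio of library 9 to the WT mean (5.62-fold, log2 change 2.38 ± 0.23, SE, adjusted p = 0.00281). Ube2c lay at the other end, at 233, 219 and 27.2 FPKM in the Aldh2-/- libraries and 33.6, 43.3 and 22.0 in WT. Its library 9 was within WT, and the gene was not called although the means were 4.85-fold apart (adjusted p = 0.0931). Pttg1 was at 11.9, 11.7 and 10.7 FPKM in the Aldh2-/- libraries and 10.7, 10.6 and 9.89 in WT. The 6 values lay within 9.89 to 11.9 FPKM (adjusted p = 0.413). Cytokinesis genes rose in 6 of 6 members, with Kif23 and Anln among those that passed the filter only through the Aldh2-/- libraries. Racgap1 was at 17.2, 13.7 and 5.16 FPKM in the Aldh2-/- libraries and 2.46, 3.27 and 1.43 in WT (5.04-fold, log2 change 1.84 ± 0.38, SE, adjusted p = 0.0160), and Kif23, its partner motor in centralspindlin, was 6.21-fold higher.

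Whether the effect of genotype differed between the diets depended on the scale. On log2(FPKM + 1), 9 of 34 tested members had a smaller rise under ethanol and 0 a larger one (limma interaction), a share near the 29.0% of all genes called lower. They were Mki67, Cdc25c, Birc5, Ttk, Cdca3, Kif20a, Kif23, Foxm1 and Hmmr. With a pseudocount of 0.1 the count was 0 by the same test, and without pair-fed Aldh2-/- 9 it was 28. Leaving out any other single library, in turn, gave 4 to 8. As ratios of mean FPKM, 16 members had the larger ratio under ethanol and 20 under pair-feeding. Without pair-fed Aldh2-/- 9 the larger ratio lay under ethanol for 6 members and without ethanol-fed Aldh2-/- 90 for 9, so the tally rested on these libraries. Kif20a (2.03 under ethanol and 5.11 under pair-feeding), Anln (2.34 and 4.78) and Cdca3 (2.73 and 5.62) leaned furthest to pair-feeding. Cenpf (10.9 and 5.87), Ube2c (8.20 and 4.85) and Nusap1 (10.6 and 6.47) leaned furthest to ethanol with all libraries in. For Ube2c the ratio under ethanol was 5.36 without Aldh2-/- 90, and that under pair-feeding 6.86 without Aldh2-/- 9. For Cenpf and Nusap1 the pair-fed ratios without library 9 were 8.07 and 9.02.

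Between the diets the members were lower under ethanol in both genotypes. In WT livers, 29 of 34 tested members were called lower and 0 higher (limma, all 4 groups in 1 fit), beside 11.9% of all genes called lower. Without pair-fed WT 19 the count was 18. In Aldh2-/- livers the count was 34 of 34, beside 29.3%. The median member averaged 0.225 FPKM in ethanol-fed WT livers, so most tested members passed the filter of 0.5 FPKM only through other groups. In ethanol-fed Aldh2-/- livers, Cdc25c, Ttk, Cenpe, Kif23, Foxm1 and Anln averaged under 0.5 FPKM and passed only through the pair-fed libraries. For all of these the filter and the call were not independent. Pair-fed over ethanol-fed, the ratio of mean FPKM had a median of 7.65 in WT (1.47 for Pttg1 to 17.1 for Plk1) and 7.78 in Aldh2-/- livers (1.50 for Pttg1 to 16.6 for Cdca3). Without pair-fed Aldh2-/- 9 the latter median was 10.1, and the count of calls was 34. Plk1, for example, averaged 0.308 ± 0.0887 FPKM in ethanol-fed (n = 5) and 5.28 ± 1.99 in pair-fed WT livers (n = 3, log2 change -2.22 ± 0.40, SE, adjusted p = 0.000786). Pttg1 was called here, in WT at 7.07 ± 1.92 against 10.4 ± 0.444 FPKM (log2 change -0.53 ± 0.14, SE, adjusted p = 0.00928). Bub1 and Cenpf did not pass the filter over the 15 libraries and have no test in this fit. This comparison crosses the 2 tables. If the sample titles are right, CCl4 exposure cannot be told apart from diet either.

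A list of 70 further mitosis genes, spindle, kinetochore and condensin genes among them, was also mostly higher in Aldh2-/- livers. Under ethanol 14 of 21 tested rose and 1 fell (median log2 change 0.56, all genes 0.04), beside 21.5% of all genes called higher and 15.7% lower. Incenp, the scaffold of the passenger complex, stood at 1.87 ± 0.399 against 0.390 ± 0.0755 FPKM (n = 4 and 5), the mitotic kinase gene Pbk at 1.20 ± 0.253 against 0.150 ± 0.0640, the spindle gene Psrc1 at 4.93 ± 1.73 against 0.690 ± 0.0521 and the minus-end motor gene Kifc1 at 1.85 ± 0.637 against 0.278 ± 0.0901. Incenp, Pbk and Kifc1 averaged under 0.5 FPKM in WT and passed the filter only through the Aldh2-/- libraries, so they had to differ. How many of the 21 did so was not counted. Hjurp, the chaperone that loads Cenpa onto centromeres, fell from 6.69 ± 0.897 to 4.18 ± 1.17 FPKM (log2 change -0.59 ± 0.15, SE, adjusted p = 0.0124). Pair-fed, 48 of 60 rose and 0 fell (median 1.03), beside 26.0% of all genes called higher. After median-ratio rescaling 7 rose, and without Aldh2-/- 1 it was 3. Without Aldh2-/- 2, WT 18, WT 19 or WT 20 the counts were 14, 19, 25 and 3, and without Aldh2-/- 9 it was 59 of 61. The kinetochore genes Cenpm (3.20-fold) and Cenpw (2.74-fold), Psrc1 (5.26-fold) and Plk4, the kinase of centriole duplication (4.62-fold), had the smallest p.

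The S phase list holds genes that copy the DNA before mitosis. Under ethanol 13 of 32 tested rose and 3 fell (median log2 change 0.20), beside 21.5% of all genes called higher and 15.7% lower. The 42 genes summed to 105 to 117 FPKM in Aldh2-/- and 106 to 116 in WT livers, ranges that overlapped. These sums join genes that rose and genes that fell. The helicase gene Mcm5 rose from 0.265 ± 0.0424 to 0.806 ± 0.111 FPKM and Rrm2, of ribonucleotide reductase, from 2.19 ± 0.431 to 6.90 ± 2.79. Mcm5 averaged under 0.5 FPKM in WT and passed the filter only through the Aldh2-/- libraries, so it had to differ. Mcm10, a replication initiation factor, fell from 10.3 ± 1.72 to 2.82 ± 1.30 FPKM (log2 change -1.63 ± 0.23, SE, adjusted p = 0.000675) and the thymidine kinase gene Tk1 from 12.0 ± 2.48 to 6.31 ± 1.53. Pair-fed, 29 of 36 rose and 0 fell, beside 26.0% of all genes called higher. After median-ratio rescaling 12 rose, and the count was 12 without Aldh2-/- 1, 15 without WT 20 and 31 without Aldh2-/- 9. The sum of the 42 genes was 206 to 279 against 108 to 122 FPKM, and library 9 (206) was above every WT library. The replication clamp gene Pcna (28.5 ± 2.54 against 11.9 ± 1.36 FPKM), Mcm6 (2.97-fold), the clamp loader gene Rfc3 (2.62-fold) and Uhrf1, which maintains DNA methylation (3.57-fold), had the smallest p. In the interaction, 29.0% of all genes were called lower. The signed log2 change was called lower under ethanol than under pair-feeding for 23 of 34 S phase genes and higher for 0. At a pseudocount of 0.1 the lower calls numbered 19. The calls include smaller rises under ethanol and, as for Mcm10, a larger fall.

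The list of genes that control the cycle showed shares near those of all genes under ethanol. There 5 of 27 tested rose and 4 fell, beside 21.5% of all genes called higher and 15.7% called lower. The higher calls numbered 2 without Aldh2-/- 90, 3 without WT 12 and 8 without WT 5, and the lower calls 2 without Aldh2-/- 96 or without any 1 of WT 6, 7, 11 and 12. Cdkn1a, the cyclin-dependent kinase inhibitor p21, rose from 36.9 ± 19.4 to 114 ± 17.1 FPKM (log2 change 1.71 ± 0.28, SE, adjusted p = 0.00119) and Pkmyt1, which holds Cdk1 inactive, from 0.285 ± 0.0896 to 1.13 ± 0.644. Pkmyt1 averaged under 0.5 FPKM in WT and passed the filter only through the Aldh2-/- libraries, so it had to differ. Tfdp2, a partner of E2F factors, was 1.39-fold higher. Wee1, the other inhibitory kinase of Cdk1, fell from 1.58 ± 0.501 to 0.772 ± 0.261 FPKM (adjusted p = 0.0142), and Nfyb, a subunit of the factor that binds CCAAT, from 7.28 ± 0.593 to 5.18 ± 0.449. Pair-fed, 12 of 29 rose and 1 fell, with 3 higher without Aldh2-/- 1, without WT 20 or after median-ratio rescaling, and 11 without Aldh2-/- 9. Of all genes in that comparison, 26.0% were called higher and 2.41% lower. Cdkn3, a phosphatase of cyclin-dependent kinases, was at 40.7 ± 7.32 against 9.13 ± 3.08 FPKM (n = 3 and 3, log2 change 2.07 ± 0.23, SE, adjusted p = 0.00404). E2f1 was 2.91-fold, Wee1 2.91-fold and the inhibitor gene Cdkn2c 2.57-fold higher, while Cdkn1c, the inhibitor p57, fell from 4.28 ± 0.757 to 2.44 ± 0.663 FPKM (adjusted p = 0.0330, lost without Aldh2-/- 1, Aldh2-/- 2, WT 18 or WT 20). Cdkn1a stood at 25.1 ± 11.0 against 22.1 ± 12.2 FPKM (adjusted p = 0.705).

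**Figure D4:**
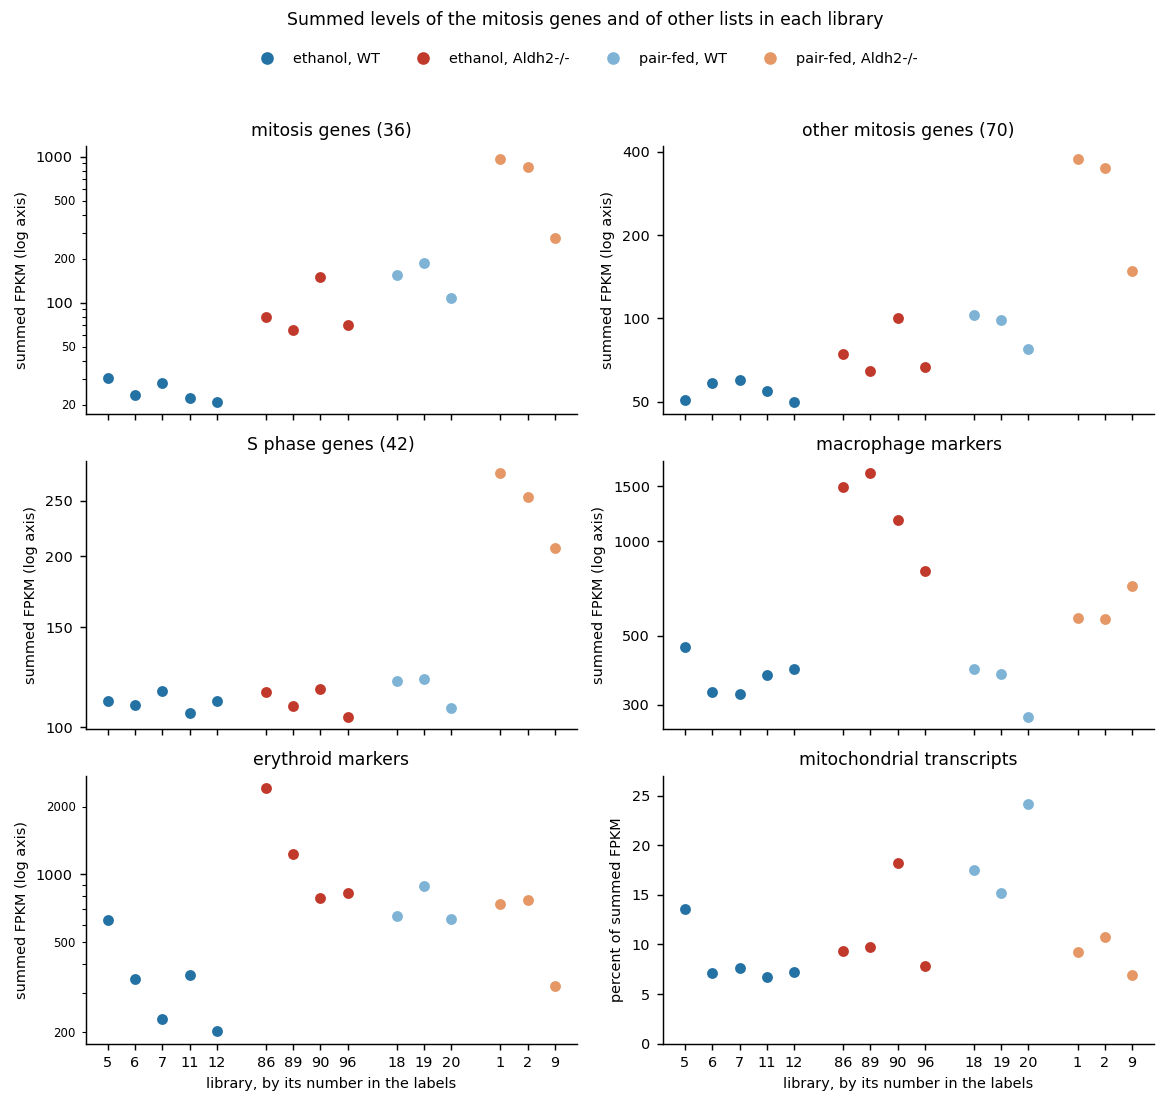
Summed FPKM of the 36 mitosis genes, of 70 other mitosis genes, 42 S phase genes, 16 macrophage and 14 erythroid markers (log axes), and the percentage of mitochondrial transcripts (linear axis), with 1 point per library coloured by group. The sum of the 36 mitosis genes separates the ethanol-fed genotypes (64.9 to 150.3 against 21.0 to 30.6 FPKM) and that of the S phase genes does not (105 to 117 against 106 to 116). The S phase sum joins genes that rose and genes that fell.

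Markers of other cells moved with genotype too. Of all genes, 21.5% were called higher in Aldh2-/- under ethanol and 26.0% in pair-fed livers. Under ethanol, macrophage markers rose in 13 of 14 tested, and the 16 summed to 805 to 1649 FPKM in Aldh2-/- and 326 to 458 in WT livers. Endothelial markers rose in 10 of 11 (123 to 173 against 51.8 to 109 FPKM), and stellate cell and fibroblast markers in 9 of 11 (222 to 422 against 109 to 235). Erythroid markers rose in 7 of 10 (788 to 2409 against 202 to 631 FPKM) and neutrophil markers in 5 of 5 (38.7 to 111 against 6.15 to 36.5 FPKM). Platelet markers rose in 3 of 3 (9.35 to 50.7 against 1.41 to 3.51 FPKM) and cholangiocyte markers in 4 of 6 (165 to 308 against 55.4 to 184). T cell markers were low but did not overlap (2.17 to 4.67 against 0.966 to 2.05 FPKM, 1 of 1 tested called higher), and B cell markers did (2.20 to 6.69 against 1.50 to 4.19, 1 of 3). The T cell marker tested was Nkg7. Nkg7, Ppbp, Ngp, Slc4a1, Ahsp, Epor and Vwf averaged under 0.5 FPKM in WT. They passed the filter only through the Aldh2-/- libraries, so they had to differ. Among pair-fed neutrophil markers, Camp passed in the same way. The erythroid genes Gata1, Ahsp and Rhd were listed at 0 in all 5 WT libraries, and Ahsp, which stabilises alpha globin, stood at 1.22 to 9.26 FPKM in Aldh2-/-. Gata1 (0 to 0.0830 FPKM) and Rhd (0.0199 to 0.164) stayed near the floor in Aldh2-/- too. Of the 10 erythroid genes tested, 9 had a log2 change above 0. Klf1 ran the other way, at 1.38 to 1.72 FPKM in Aldh2-/- and 1.67 to 2.32 in WT. The library with the highest member sum, Aldh2-/- 90, had the lowest erythroid (788 FPKM) and endothelial (123) sums of its group and the third highest macrophage sum (1169). It had the highest cholangiocyte sum (308) and the second highest neutrophil (69.4), T cell (3.99) and B cell (4.70) sums, and the second lowest stellate (245) and platelet (13.7) sums. Pair-fed, macrophage markers rose in 8 of 16 (565 to 721 against 275 to 390.0 FPKM) and neutrophil markers in 3 of 5 (31.7 to 55.2 against 17.3 to 18.6 FPKM). Erythroid markers were called in 0 of 8 in either direction (319.9 to 772 against 637 to 892 FPKM), and endothelial markers rose in 0 and fell in 1 of 11. Stellate cell and fibroblast markers rose in 1 of 11 (151 to 195 against 109 to 180.0 FPKM), platelet markers in 1 of 3 and cholangiocyte markers in 1 of 5. T cell and B cell markers were called in 0 of 2 and 0 of 3. Hepatocyte markers under ethanol rose in 1 and fell in 0 of 12. Their sum, in which Alb was the largest, was lower in Aldh2-/- livers (67983 to 78620.5 against 79178.5 to 95946.3 FPKM). Pair-fed, 1 of 12 rose and 4 fell, beside 2.41% of all genes called lower, and the sums overlapped (83380.4 to 94255.5 against 84741.4 to 96841.3 FPKM). The part of hepatocytes or other cell types in the member levels was not tested.

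Single libraries also ranked the members within groups. Aldh2-/- 90 was the highest of its ethanol-fed group for 31 of 36 members (all genes 27.2%), 1.94-fold the mean of the other 3 for the median member. Pair-fed WT 20 was the lowest of its group for 34 (all genes 43.0%), with the other two 1.67-fold higher for the median member. These libraries had the highest mitochondrial shares of their groups, 18.2% and 24.2%, with the members highest in one and lowest in the other. In ethanol-fed WT livers no library stood out in this way. WT 5 was the highest for 14 members, WT 7 for 12 and WT 11 for 7.

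**Figure D5:**
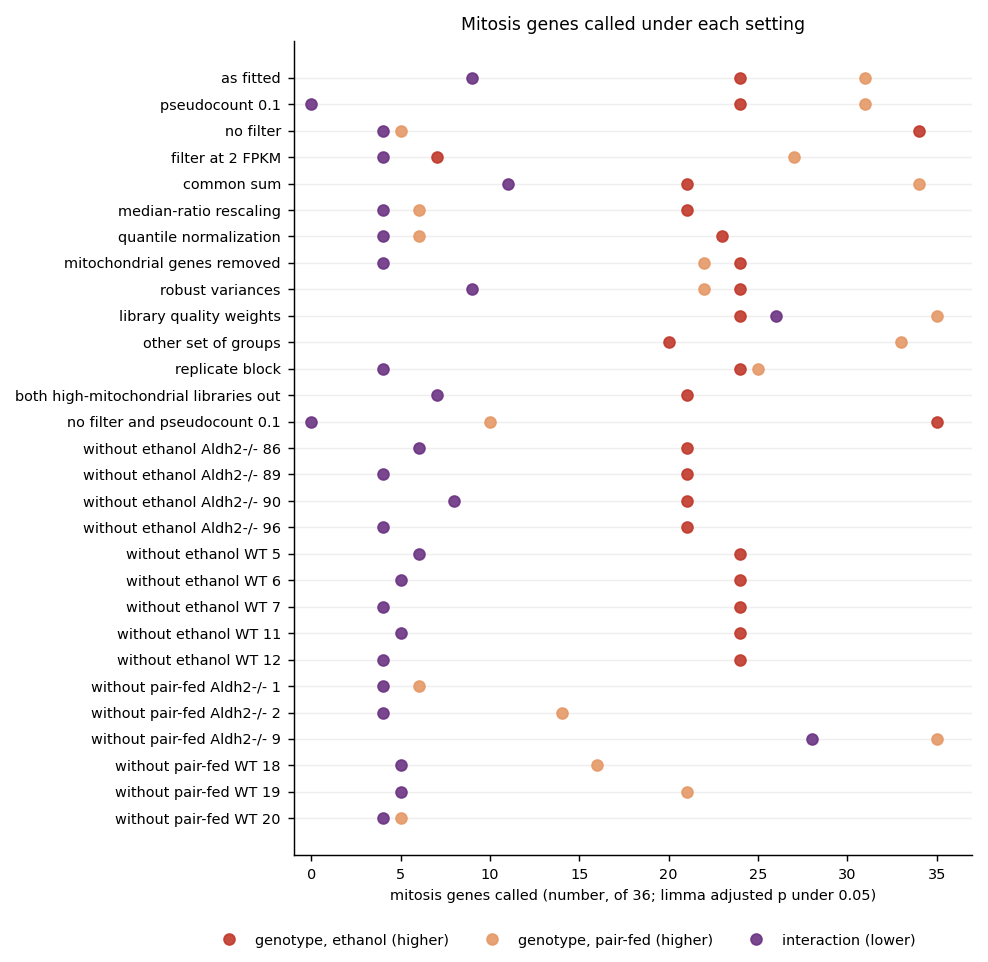
Number of mitosis genes called (limma adjusted p under 0.05) in the 2 genotype comparisons (higher in Aldh2-/-) and in the interaction (smaller rise under ethanol), for each way of processing and with each library left out. Calls under ethanol stay at 21 to 24 whichever library is left out, and those under pair-feeding run from 5 to 35.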

How the data were processed

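Liver RNA was measured by paired-end RNA-seq in 15 libraries of 4 groups. Per the submitters' processing notes, fastp, HISAT2, HTSeq and mm10 were used; no versions were given. The authors deposited FPKM in 2 tables, 1 per diet, and these values were used as deposited. Total counts were not used here, and depth was inferred from whole multiples of 1 fragment (tolerance 0.01), 38.6 M in 1 library by the commonest value of single-exon genes, and carried over to the others. Each comparison was fitted on the whole table (limma 3.58.1, R 4.3.3: linear model, empirical Bayes, variance trend) on log2(FPKM + 1), for genes averaging 0.5 FPKM or more. Tests were two-sided, and adjusted p (Benjamini-Hochberg) under 0.05 was called. Genotype comparisons used the 2 groups of 1 table, and the diet and interaction comparisons used all 4 groups. Per-library values were printed for Mki67, Ccnb1, Ccnb2 and Cdk1, for the member of each role with the smallest p in each genotype comparison, and for tested members not called. Of other lists, up to 4 genes with the smallest p were named; Hjurp, Tk1, Wee1, Cdkn1c, the pair-fed values of Cdkn1a and the example of Cenpf were added after their values were seen. A gene that the rule names is not reported here. Members and lists were chosen with earlier results of these data known. The mitochondrial share covers the 13 protein-coding genes of that genome in RefSeq. Alternatives were another pseudocount, filters, 4 scalings, robust variances, library weights, other groups in the fit, a replicate block and leaving out libraries. The fit was tested on simulated data. Python 3.11.15, pandas 2.3.3 and matplotlib 3.10.9 were used.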

Additional observations from a re-analysis of the deposited data

Results flagged for a closer look

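In 10 of 72 groups of 4 or 5 libraries, 1 library lay further from its nearest neighbour, relative to the range on the log2(FPKM + 1) scale, than Dixon's test allows at the 95% level. Chance flags about 1 in 20 such groups if they are independent. These groups are not, because they hold different members in the same ethanol-fed libraries. Ethanol-fed Aldh2-/- 90 was the high library for Mki67 (1.42 FPKM), Ccnb2 (11.3 FPKM), Cdc25c (0.834 FPKM), Bub1b (1.44 FPKM), Cenpe (0.570 FPKM), Nusap1 (2.06 FPKM) and Ckap2 (2.57 FPKM). Ethanol-fed WT 5 was the high library for Tpx2 (0.234 FPKM), Pttg1 (10.4 FPKM) and Ckap2 (0.355 FPKM). These are the ethanol libraries with the highest mitochondrial shares, and whether the share has a part in the values was not tested.

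The effect of genotype differed between the diets by a test of the difference for 9 of 34 tested members, where 29.0% of all genes were called in the same direction. The log2 change under ethanol minus that under pair-feeding was -0.99 for Mki67, -1.11 for Cdc25c, -0.92 for Birc5, -0.84 for Ttk, -1.34 for Cdca3, -1.37 for Kif20a, -0.88 for Kif23, -1.11 for Foxm1 and -0.98 for Hmmr (limma, adjusted p from 0.00569 to 0.0495). None of these was called with a pseudocount of 0.1.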

How the results depend on the processing

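Under ethanol, 7 members were called higher with a filter at 2 FPKM, because only 8 were tested, and 21 to 24 with 1 library left out. Under pair-feeding, the 31 calls became 5 with no filter, 6 after median-ratio rescaling, 6 after quantile normalization, 10 with no filter and a pseudocount of 0.1 (chosen after seeing the data), and 5 to 35 with 1 library left out. In the interaction, the 9 lower calls became 0 at a pseudocount of 0.1, 4 with no filter, 4 with a filter at 2 FPKM, 4 after median-ratio rescaling, 4 after quantile normalization, 4 with mitochondrial genes removed, 26 with library weights, 0 with no filter and a pseudocount of 0.1, and 4 to 28 with 1 library left out. By diet, 18 to 34 in WT (against 29) and 32 to 35 in Aldh2-/- livers (against 34) were called lower with 1 library left out. The causes of the other changes were not tested. In every fit run, 0 members were called in the direction opposite to these. With the replicate block, by the number in the description labels, 24, 25 and 4 members were called in the ethanol, pair-fed and interaction comparisons, and 18 and 34 by diet in WT and Aldh2-/- livers. Same-numbered libraries did not deviate together (r from -0.09 to 0.24), so the numbers were not taken to pair them. Depth limits ethanol-fed WT most, where 29 of 180 member values rest on fewer than 10 fragments.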
